A study of Caenorhabditis elegans with 2 samples.

Results

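Integrator is a protein complex that associates with RNA polymerase II, and 9 genes of its subunits were examined for binding of the homeodomain protein CEH-82 among 19973 nuclear protein-coding genes of Caenorhabditis elegans. The genes ints-1, ints-2, ints-3, ints-4, ints-5, ints-7, ints-8, ints-9 and ints-11 were chosen by symbol, with their peaks already known, so the counts below describe them and no test was made. Chromatin immunoprecipitation with sequencing was done in first-stage (L1) larvae of mixed sex, as whole animals, from the strain OP212 with the genotype unc-119(ed3) III; ddEx58. This single transgenic line expressed CEH-82 (F45C12.2) with a GFP-FLAG tag at the C-terminus. The labels list the antibody as ceh-82, speak of an insertion and also name what reads as an extrachromosomal array, so the antibody target and the tagged copy are unclear. There was 1 group of 2 biological replicates, and each replicate list was made against a control alignment that is not analysed here. The larvae hold many tissues, so the cells in which binding took place are not known.

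Integrator was first known for cutting the 3' ends of small nuclear RNAs, and it also ends transcription early at many protein-coding genes. In human cells its cleavage module joins the endonuclease INTS11, its inactive homologue INTS9 and the scaffold INTS4, while INTS1, INTS2 and INTS7 form the backbone and INTS5 and INTS8 help to hold a phosphatase. INTS3 in human cells is also part of a complex that binds single-stranded DNA. The roles given below come from these human complexes.

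A gene was counted as bound when a summit of the deposited optimal list lay within 500 bp of its annotated start. Of the 9 genes 5 were bound, which is 55.6%, against 8.18% of all protein-coding genes. They were ints-4, ints-9, ints-11, ints-2 and ints-5. The 2 other genes with an ints symbol in the annotation, ints-6 and ints-13, were not among those chosen and were not bound, so the count over all such genes was 5 of 11 (45.5%). The optimal list held 2346 peaks, the relaxed list from both replicates together held 20459, and each replicate's own relaxed list held 30000. Every optimal peak was also a pooled relaxed peak with the same borders. Peak signal is a value set by the authors, and its scale is not given in the sources used here. It has no replicate error and was read only within a list. Read depth was not given for either replicate.

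The DNA before 4 of the bound genes is shown because the summits fall in it, and the DNA before ints-7 because no optimal or pooled relaxed summit does. Each sequence runs on the strand of the gene and ends at the base before its annotated start, on WBcel235 (the ce11 build) from RefSeq. Capitals mark the 11 bases centred on the optimal summit. The first is the whole gap between trm-1 and ints-2 (chrV:14185613-14185685, plus strand), the second the 200 bases before ints-5 (chrV:18533753-18533952, plus strand) and the third the gap between snu-66 and ints-9 (chrV:7575671-7575801, plus strand). The fourth is the 200 bases before ints-11 (chrII:8143479-8143678, minus strand), and the last the gap between smc-6 and ints-7 (chrII:11582740-11582848, plus strand).
ints-2: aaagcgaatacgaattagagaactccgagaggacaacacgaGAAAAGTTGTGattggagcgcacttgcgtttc
ints-5: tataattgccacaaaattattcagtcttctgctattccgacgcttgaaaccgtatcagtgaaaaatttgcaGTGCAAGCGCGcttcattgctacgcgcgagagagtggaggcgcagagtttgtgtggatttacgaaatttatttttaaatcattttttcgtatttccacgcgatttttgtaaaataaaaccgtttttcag
ints-9: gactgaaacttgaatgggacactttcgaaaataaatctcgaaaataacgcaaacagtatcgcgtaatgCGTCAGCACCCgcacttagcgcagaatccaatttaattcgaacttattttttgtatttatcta
ints-11: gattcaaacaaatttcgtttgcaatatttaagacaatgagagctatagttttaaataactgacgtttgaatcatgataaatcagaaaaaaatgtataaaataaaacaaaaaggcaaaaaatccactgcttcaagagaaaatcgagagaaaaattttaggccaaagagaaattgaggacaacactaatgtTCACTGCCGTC
ints-7: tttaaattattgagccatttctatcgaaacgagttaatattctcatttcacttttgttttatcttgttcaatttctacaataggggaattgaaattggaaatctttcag

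The gaps before ints-2 and ints-9 are 73 and 131 bases long, so a single summit lies close to the starts of both genes that flank it. The sequences before ints-5 and ints-7 both end in TTTCAG. These letters match the acceptor consensus at which worm transcripts can receive a spliced leader. Where a leader is added, the annotated start marks the splice site and not the first transcribed base. Whether these genes receive a leader was not examined. TTTCAG on the gene's strand ended directly before the start at ints-5, ints-7 and ints-8 and at none of the other 6 genes. The same letters stood there in 12.3% of all protein-coding genes and in 23.7% of the bound ones, a search added after the sequences had been seen. The base composition of the gaps differed, from 27.5% G and C before ints-7 to 45.2% before ints-2.

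**Figure D1:**
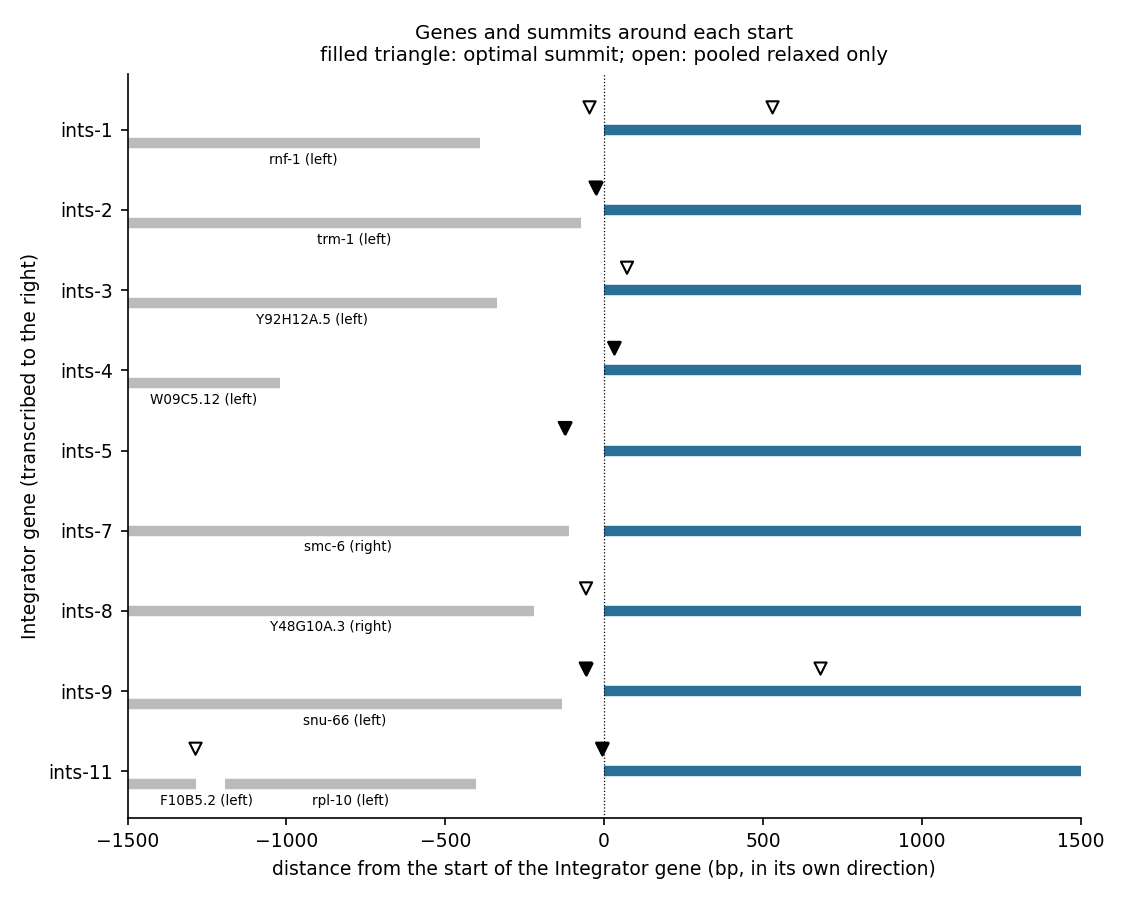
Protein-coding genes (bars; blue for the Integrator gene, grey for neighbours, with the direction of transcription in brackets) and summits (triangles) within 1500 bp of each start, drawn to scale in the direction of the Integrator gene. Filled triangles are optimal summits, and open ones are summits of the pooled relaxed list that are not in the optimal list. ints-2, ints-4, ints-5, ints-9 and ints-11 have a filled triangle next to the start, and ints-7 has no triangle.

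The 3 genes of the cleavage module were all bound, where 8.18% of all protein-coding genes were. Without replicate 1 ints-11 was not bound, so this count depends on the list used. The strongest Integrator peak was at ints-4, the scaffold subunit gene (chromosome I, 13663352 to 13674997, plus strand). It had a signal of 269.8 and ranked 44 in the optimal list, 45 in replicate 1 and 41 in replicate 2. The summit was in the 5' UTR, 32 bp past the start, and the 4 lists placed it within 1 bp of each other. The signal was 117.4 in the list of replicate 1 and 154.5 in that of replicate 2. The peak was 240 bp wide in the optimal list, 99 bp in replicate 1 and 120 bp in replicate 2. Most peaks had a fixed width, 280 bp in the optimal list, where only 6.18% were narrower. No other annotated gene start lay within 500 bp of this summit, and the nearest upstream gene, W09C5.12, began 1052 bp from it on the opposite strand.

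At ints-9, the gene of the inactive partner of the endonuclease (chromosome V, 7575802 to 7581532, plus strand), the summit lay 58 bp upstream of the start. The signal was 71.5 in the optimal list, with a rank of 816 there, 879 in replicate 1 and 780 in replicate 2. Replicate signals were 31.04 in the list of replicate 1 and 40.8 in that of replicate 2. The same summit lay 74 bp upstream of snu-66, a splicing factor gene of the SNU66/SART1 family that is transcribed in the opposite direction. In replicate 1 the summit was 51 bp upstream of ints-9, and in replicate 2 it was 67 bp upstream, where snu-66 was the nearer start. The lists do not tell to which of the genes the peak belongs.

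At ints-11, the gene of the endonuclease (chromosome II, 8141209 to 8143478, minus strand), the summit lay 6 bp upstream of the start. This was the weakest of the 5 bound genes, with a signal of 41.4 and a rank of 1696 in the optimal list. Its peak ranked 1472 in replicate 1 but 2840 in replicate 2, outside the 2346 strongest peaks of that replicate. The signal was 21.7 in the list of replicate 1 and 15.4 in that of replicate 2. Both replicates placed the summit within 10 bp of the start. The ribosomal protein gene rpl-10 starts 397 bp from the summit on the other strand, and it counts as bound through this peak alone. The summit was far nearer to ints-11.

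**Figure D2:**
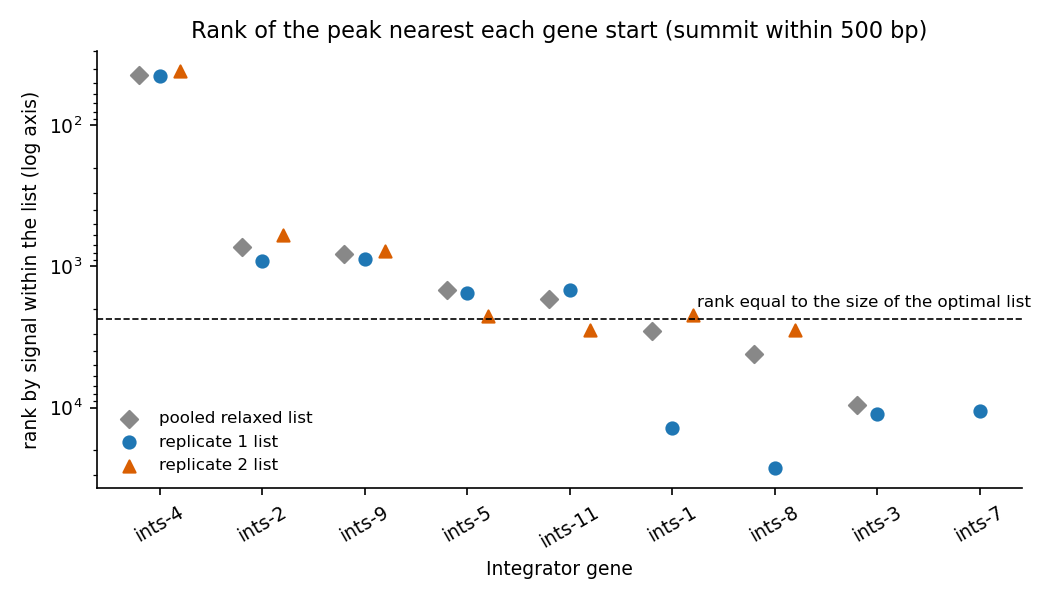
Rank of the peak nearest each gene start by signal within its list (log axis, strongest at the top), for peaks with a summit within 500 bp of the start. Points are the pooled relaxed list (grey), replicate 1 (blue) and replicate 2 (orange), and the dashed line is at rank 2346, the size of the optimal list. ints-4 stands highest in all 3 lists, and ints-1 and ints-8 rank far higher in replicate 2 than in replicate 1.

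Of the 3 backbone genes only ints-2 was bound, but without replicate 1 ints-1 was bound as well. A difference between the modules was not tested. At ints-2 (chromosome V, 14185686 to 14192161, plus strand) the summit lay 27 bp upstream of the start. Its signal was 76.9, and its rank was 732 in the optimal list, 908 in replicate 1 and 599 in replicate 2. The replicates gave it signals of 30.4 in replicate 1 and 47.6 in replicate 2. The summit was also 47 bp upstream of trm-1, which encodes a tRNA methyltransferase and runs the other way. The 4 lists placed this summit within 16 bp of each other, 41 bp upstream of ints-2 in replicate 1 and 25 bp upstream in replicate 2. As at ints-9, the peak spans the starts of both divergent genes.

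The backbone gene ints-1 (chromosome I, 6011977 to 6022666, plus strand) had a peak below the limit of the optimal list. Its pooled relaxed peak had a signal of 25.99 and ranked 2851, while the lowest signal in the optimal list was 30.9. All 3 relaxed lists placed this summit 46 bp upstream of the start, and rnf-1, on the other strand, also started within 500 bp of it. The replicates differed in its strength, with a rank of 14044 (signal 6.9) in replicate 1 and 2223 (signal 18.5) in replicate 2. Among the 2346 strongest peaks of each replicate, that of ints-1 was thus present in replicate 2 but not in replicate 1.

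The third backbone gene, ints-7 (chromosome II, 11582849 to 11588490, plus strand), had no optimal or pooled relaxed summit within 500 bp of its start. Its nearest pooled relaxed summit lay 4628 bp downstream in an intron of its own, with a signal of 11.6. Replicate 1 had a weak peak 215 bp upstream, in the 3' UTR of smc-6, which ranked 10522, and the nearest summit of replicate 2 lay 1022 bp upstream. The start of ints-7 is 109 bp beyond the end of smc-6 on the same strand. The start of smc-6, a gene of a chromosome maintenance complex, had no optimal summit within 500 bp either. The nearest optimal summit of all lay 37253 bp downstream of the ints-7 start.

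Of the other 3 genes ints-5 was bound. At ints-5 (chromosome V, 18533953 to 18549101, plus strand) the optimal summit lay 124 bp upstream of the start, the farthest of the 5. Its signal was 47.1, and its rank was 1469 in the optimal list, 1535 in replicate 1 and 2251 in replicate 2. Its signal was 20.9 in the list of replicate 1 and 18.3 in that of replicate 2. The replicates disagreed on the position, with the summit 40 bp upstream in replicate 1 and 115 bp upstream in replicate 2. No other annotated gene started within 500 bp of it, and the upstream neighbour hmit-1.2 ended 4796 bp before ints-5.

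At ints-8 (chromosome I, 13455356 to 13470371, minus strand) a peak at the start was found only in the relaxed lists. In the pooled list its summit lay 57 bp upstream with a signal of 20.3 and a rank of 4175. The ncRNA gene Y48G10A.9 also started within 500 bp of this summit, and Y48G10A.3 was the neighbour upstream. The ints-8 peak ranked 26866 (signal 5.2) in replicate 1, close to the end of that list, and 2812 (signal 15.6) in replicate 2. ints-3 (chromosome I, 1514755 to 1540926, plus strand) had a weaker one, 72 bp downstream of the start in a coding exon, with a pooled signal of 14.5 and a rank of 9631. The divergent gene Y92H12A.5 started within 500 bp of that summit too. Replicate 1 had it 66 bp downstream at rank 11137, and the nearest summit of replicate 2 was 12089 bp upstream. RefSeq marks the records of ints-3 and ints-8 as partial. Which end is incomplete was not examined, so whether this bears on the Ensembl starts used here is not known.

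**Figure D3:**
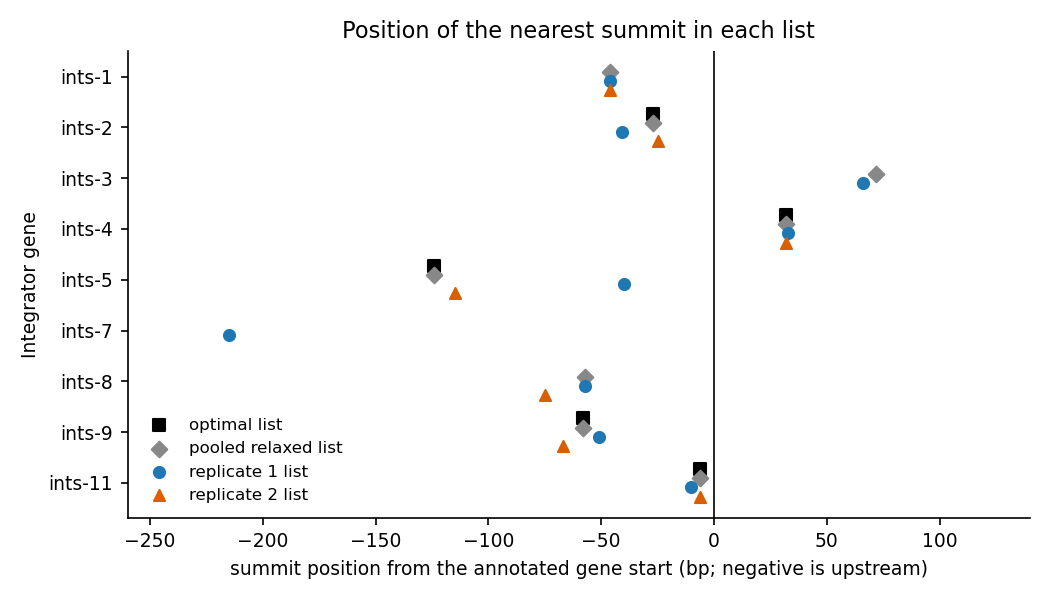
Position of the summit nearest each annotated start in the 4 lists (bp, negative is upstream), shown where it lay within 500 bp. Symbols are the optimal (black), pooled relaxed (grey), replicate 1 (blue) and replicate 2 (orange) lists. The summits of ints-4 lie downstream of the start within 1 bp of each other, those of ints-5 span 84 bp, and ints-7 has a summit in replicate 1 alone.

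At the 5 bound Integrator genes the optimal summit lay from 6 to 124 bp from the annotated start. Those of ints-2 and ints-9 lay in gaps of only 73 and 131 bases. The nearest optimal summits of ints-1, ints-3, ints-7 and ints-8 lay 5292 to 37253 bp away. In the optimal list 4 of the 9 genes had a summit within 100 bp of the start, against 1.74% of all protein-coding genes. The median distance was 32 bp over the 5 bound genes and 186 bp over all 1633 bound genes, of which 36.8% had a summit within 150 bp. With relaxed peaks of the pooled data, 8 of the 9 genes had a summit within 500 bp of the start, against 27.4% of all, and 7 of the 9 within 100 bp, against 6.77%. The limit of 100 bp was added after these positions were known. Over all bound genes 91.9% of summits were upstream of the start, as were 4 of the 5 here.

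The 5 bound genes had a median signal of 71.5, against 62.8 over all bound genes and 55.4 over all optimal peaks. Only ints-4 was among the 100 strongest peaks, and ints-5 and ints-11 were in the weaker part of the optimal list. In both replicates, 4 of the 9 genes (ints-2, ints-4, ints-5 and ints-9) had one of the 2346 strongest peaks within 500 bp of the start, against 6.56% of all protein-coding genes.

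The genes most like each bound gene by rank were found from the mean absolute difference of log2 rank over the 4 lists, which share their reads. For each bound Integrator gene the optimal and pooled relaxed ranks were the same, so that ranking enters 2 times. For ints-4 they were C34C12.8 (0.115) and dld-1 (0.141), with optimal ranks of 46 and 47. For ints-2 they were Y37E11AL.3 and taf-6.2, which share 1 peak (0.015 each). For ints-5 they were K09G1.1 and the elongation factor gene rtfo-1, again with 1 shared peak (0.028), and for ints-9 ekl-1 and prpf-4 with another (0.037). For ints-11 they were elo-1 (0.060) and gpr-2 (0.087). With only 2 replicates behind these ranks, they describe similar peak strength and nothing else.

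The neighbours of the Integrator genes were set beside the same arrangement over the genome. Of the 9 genes 5 had an upstream neighbour on the opposite strand within 500 bp, and 3 of these were bound (ints-2, ints-9 and ints-11), while ints-1 and ints-3 were not. Over all protein-coding genes in this arrangement 29.6% were bound, and 1 peak can then lie near both starts. An upstream neighbour on the same strand within 500 bp preceded ints-7 and ints-8, neither of which was bound, and 4.98% of all genes so placed were bound. With no neighbour within 500 bp upstream, ints-4 (divergent, 8.92% of all such genes bound) and ints-5 (same direction, 3.61%) were both bound. On the downstream side the neighbours of ints-1, ints-2, ints-3, ints-4 and ints-5 were B0025.5, atfs-1, Y92H12A.2, clpr-1 and Y51A2D.8. Those of ints-7, ints-8, ints-9 and ints-11 were gfat-1, Y48G10A.6, F19F10.11 and ctns-1. Sharing a peak was common in general, at 47.7% of all bound genes.

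Optimal summits were also found inside 3 of the genes, away from their starts. The strongest lay in an intron of ints-8, 6441 bp from its start, with a signal of 183.9, an optimal rank of 120 and ranks of 140 and 100 in replicates 1 and 2. It was 25 bp upstream of rpr-1, the gene of the RNA of ribonuclease P, which processes tRNA precursors. The peak was 95 bp wide. In an intron of ints-9 a summit 4755 bp from the start (signal 40.4) lay 11 bp upstream of ets-6, an ETS-family gene nested in ints-9. That peak ranked 1018 in replicate 1 and 3617 in replicate 2. The third lay in the 3' UTR of ints-3, 26023 bp from its start, with a signal of 42.0, ranks of 1691 and 1766 in the replicates, and no annotated start within 500 bp, piRNA genes left out. None of these counted towards the 5 bound genes.

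Preset motifs were counted under the Integrator summits, beside their share over all optimal peaks. With only 5 summits, the counts do not set these genes apart from the other peaks. In the 101 bp centred on the summit, counted on both strands, GAGAGA was found at ints-5 alone of the 5 bound genes, and in 30.3% of all optimal peaks. In the sequence shown, it begins 102 bp before the ints-5 start. With 100 bp on either side of the summit it was found at ints-4, ints-5 and ints-11, against 45.4% of optimal peaks. TGATAA was found at ints-4 and in 1.88% of optimal peaks. The homeodomain core TAATTA was found at none of the 5 and in 1.02% of optimal peaks, and the E-box CACGTG at none of the 5 and in 3.28%. The share of G and C in the 101 bp ran from 36.6% at ints-9 to 51.5% at ints-5, with a median of 48.5% over all optimal peaks.

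Other genes of the transcription and RNA 3' end machinery were counted in the same way. Of the other Integrator-linked genes, 4 of 9 listed symbols matched the annotation, and none of the 4 was bound. ints-6 (phosphatase module in human cells) had a weak pooled relaxed peak 27 bp upstream of its start, with a signal of 16.5 and a rank of 6639. It ranked 2627 in replicate 1, and no summit of replicate 2 lay nearer than 1866 bp. The nearest optimal summit to ints-13 lay 3075 bp upstream. The phosphatase 2A genes let-92 (catalytic subunit) and paa-1 (scaffold subunit) had their nearest optimal summits 1060 and 595 bp upstream, with signals of 56.6 and 54.2.

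Cleavage and polyadenylation factors, which make the 3' ends of messenger RNAs, had 8 of 15 genes bound (53.3%). They were cpsf-1 (signal 180.1), cfim-1 (74.5), cpf-2 (66.9), symk-1 (63.2), pfs-2 (49.8), pcf-11 (48.2), fipp-1 (44.2) and cpf-1 (34.3). Of these, cfim-1, symk-1, pfs-2, fipp-1 and cpf-1 each shared the peak with another bound gene. With each peak at its nearest start, cfim-1, symk-1 and pfs-2 were not bound. cpsf-3 and cpsf-2, whose proteins are the counterparts of INTS11 and INTS9 in that machinery, were not bound, though cpsf-2 had a pooled relaxed summit within 500 bp of its start. Their summits lay from 111 to 347 bp upstream of the start for 7 of the 8 and 7 bp downstream at fipp-1, a range that overlaps that of the Integrator genes. Within 100 bp of the start only fipp-1 of the 15 had a summit.

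Other lists had smaller shares. RNA polymerase II subunits had 3 of 12 bound, namely rpb-11 (signal 204.7), rpb-7 (123.8) and rpb-3 (48.3). Elongation factors had 5 of 16 (31.2%), pafo-1 (152.1), emb-5 (86.5), cdk-9 (70.7), rtfo-1 (45.6) and cdc-73 (39.0). Mediator had 7 of 26 (26.9%), mdt-22 (123.2), mdt-9 (99.9), mdt-26 (91.0), sop-3 (72.8), sur-2 (54.4), cic-1 (49.1) and rgr-1 (41.1). The SNAP complex, which starts transcription of small nuclear RNA genes, had 1 of 7 (14.3%), snpc-4 (33.9). Each of these lists stood above the 8.18% of all protein-coding genes. The SNAP complex share rests on 1 gene, which was not bound without replicate 1 or within 250 bp. Differences among lists of this size were not tested.

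**Figure D4:**
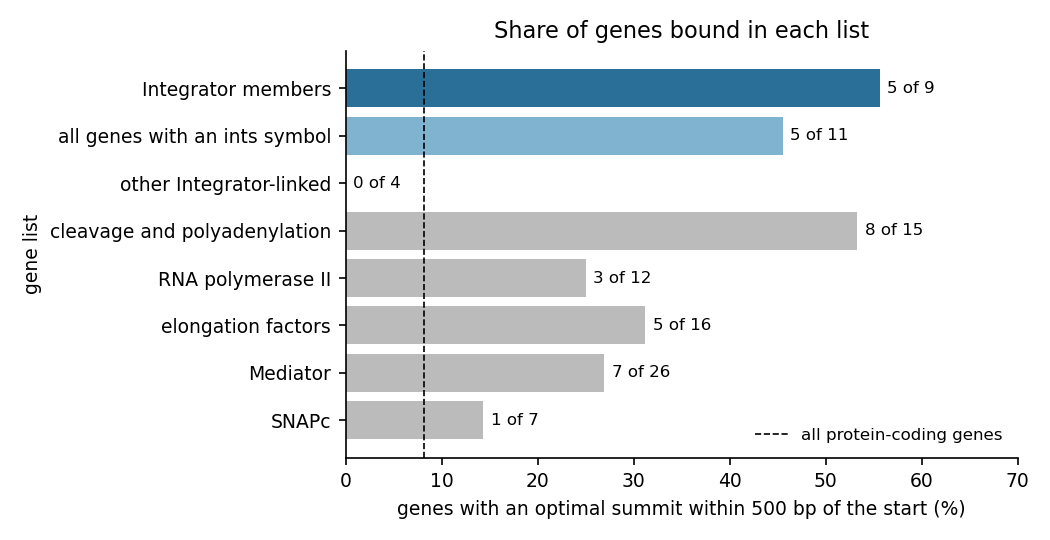
Share of genes in each list with an optimal summit within 500 bp of the start (%), with the number bound of the number matched beside each bar and the share over all protein-coding genes (8.18%) as a dashed line. The Integrator genes chosen (5 of 9) and the cleavage and polyadenylation factors (8 of 15) have the highest shares, and the 4 other Integrator-linked genes have none.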

How the data were processed

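Peak lists on ce11 were used as deposited. Per the descriptions deposited with the files, the authors made relaxed lists (peaks plus background) from each replicate and from both together, each with a control alignment. An optimal list was derived from these 3 by the irreproducible discovery rate. Column 7 holds the authors' peak signal, on a scale not given in the sources used here, and column 10 the summit offset. The aligner, the peak caller and the threshold are not given in the sources used here. The ce10 lists were not used here.

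Summits were placed on the Ensembl release 115 annotation (WBcel235). No ce11 peak extended past a chromosome end of that assembly. Positions count from 1, and distances are signed by gene strand. A gene was bound when an optimal summit lay within 500 bp of its start, and a replicate's top peaks were its 2346 strongest. Peaks were matched by an overlap of at least 1 bp. The text names all 9 genes, genes with a start within 500 bp of their peaks, the genes on either side of each, bound genes of the comparison lists, and the 2 bound genes most similar in rank to each. No contrast between groups exists and no test was made. Assignment was checked on planted summits. Members and lists were chosen with earlier results of these data known. Python 3.11.15 with pandas 2.3.3 was used.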

Additional observations from a re-analysis of the deposited data

How the results depend on the processing

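The same 5 Integrator genes were bound with limits of 250 and 1000 bp, with each peak at its nearest start and with any transcript start. With upstream summits alone 4 were bound (without ints-4). Of all 19973 protein-coding genes, 1065 were bound with 250 bp and 2063 with 1000 bp. The count over all genes was 1239 at the nearest start, 1728 with any transcript start and 1504 with upstream summits alone. Without replicate 1 the Integrator count was also 5, with ints-1 in place of ints-11, beside 1570 of all genes. Without replicate 2 the same 5 were bound, beside 1609 of all genes. The 1173 strongest peaks of the optimal list left 3 Integrator genes, 4 cleavage and polyadenylation genes, 3 elongation factors, 4 Mediator genes, 0 SNAP complex genes and 938 of all genes. The pooled relaxed list gave 8 Integrator genes, 1 other Integrator-linked gene, 8 polymerase subunits, 13 elongation factors, 12 Mediator genes, 2 SNAP complex genes and 5476 of all genes. With 250 bp there were 3 elongation factors, 0 SNAP complex genes and 1065 of all genes, and with 1000 bp 1 other Integrator-linked gene (paa-1). With 100 bp, added after the data were seen, there were 1 cleavage and polyadenylation gene, 1 polymerase subunit, 1 elongation factor, 2 Mediator genes, 0 SNAP complex genes and 348 of all genes. With each peak at its nearest start 5 cleavage and polyadenylation genes were bound. Without replicate 1 the SNAP complex had 0, and without replicate 2 it had 1. Over all 9 genes, bound or not, the median distance from start to nearest summit was 124 bp in the optimal list and 57 bp in the pooled relaxed list. It was 46 bp in the replicate 1 list and 67 bp in the replicate 2 list. These lists hold 2346, 20459, 30000 and 30000 peaks, and a longer list can place a summit nearer to any gene. The same medians over all genes are not given here. With 25 bp either side of the summit GAGAGA and TGATAA were each found at 0 of the 5 bound genes, and with 100 bp either side GAGAGA was found at 3. When at least 50% of an optimal peak had to be covered, 3 of the 5 peaks matched a top peak of both replicates in place of 4. The peak of ints-4, 99 bp wide in replicate 1 and 240 bp in the optimal list, was lost. In these lists the causes were not tested. No paired analysis was possible because the series has 1 group. Depth is unknown, so a missing peak at ints-7 is not evidence that binding is absent.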
